A study of Mus musculus with 2 samples.

Results

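Antisense noncoding RNAs are transcribed from the strand opposite another gene, and 178 genes of this kind were detected in mouse adrenal gland. The members are genes with at least 1 transcript of the GENCODE biotype antisense and a level of at least 1 TPM (a length-scaled share of all transcripts) in the gene tables of both libraries. Kcnq1ot1, the only one of 5 well-known imprinted noncoding genes left out by name that has this biotype, is not counted. They were selected on the measured TPM, so that every member lies above the limit by construction. The 178 members are 5.76% of the 3090 antisense genes under the rule, among 55450 annotated genes in all, and 1.26% of the 14168 genes detected at the same limit.

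Total RNA, reduced of ribosomal RNA, came from whole adrenal glands of adult male mice, 8 to 10 months old, of a strain labelled 5xFAD/CAST. 5xFAD is a transgenic model of amyloid deposition in which the Thy1 promoter drives mutant human amyloid precursor protein and presenilin, mainly in neurons. CAST mice come from a wild-caught stock. There was 1 group with 2 libraries, biological replicates 1 and 2, both from the same cross, with separate biosamples and a shared donor entry, so the spread between them may not be that between animals. No group could be compared with another, and the smallest two-sided sign-flip p over 2 libraries is 0.5, so values are given as descriptions.

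An antisense transcript may start beside the promoter of its opposite-strand gene and run away from it, meet that gene tail to tail, or lie inside it. Some act in cis on the chromatin of the neighbouring gene, others host small nucleolar RNAs in their introns, and for most no function is known. The adrenal gland joins a steroid-producing cortex, which comes from mesoderm, to a catecholamine-producing medulla, which comes from the neural crest, and transcription factors of both lineages have antisense neighbours.

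Replicate 1 held 29193433 counts on annotated genes, and replicate 2 held 26311876. All 6 markers of the steroidogenic cortex and all 5 of the medulla were detected, with summed levels of 17125 and 18087 TPM for the cortex and 1981 and 2289 TPM for the medulla. The 5 white adipocyte markers summed to 470 TPM in replicate 1 and 274 TPM in replicate 2. Their part in the differences between the libraries was not tested. Of 6 kidney markers, Aqp2 alone was detected, at 1.69 and 1.01 TPM, and the 3 liver, 3 lymphocyte and 3 skeletal muscle markers were each below 1 TPM in both libraries. All 3 endothelial and all 3 macrophage markers were detected, and of 3 Schwann cell markers Sox10 was not. In a whole gland, fewer cells of a type and less RNA per cell cannot be told apart.

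Sequences show how the members lie on the opposite strand. The following stretches of 60 bases come from member transcripts of GENCODE M21 on mm10, and were chosen because they face codons of a partner gene, that is, of the gene overlapping on the other strand. Capitals mark the bases that face a codon of the partner and lower case the bases that do not. The stretch of Gm11175-202 is on the minus strand at chr8:70699630-70699689. The whole transcript faces Jund, and all 408 of its bases lie opposite codons. The stretch of Gm44732-201 is on the plus strand at chr7:143459749-143459808, and the whole transcript faces codons of Cdkn1c with 625 of its 635 bases. The stretch of Hoxb3os-201 is on the minus strand at chr11:96345526-96345585, and the whole transcript faces codons of Hoxb3 with 851 of its 2315 bases.
Gm11175-202: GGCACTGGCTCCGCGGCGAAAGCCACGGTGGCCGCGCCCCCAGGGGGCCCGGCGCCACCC
Gm44732-201: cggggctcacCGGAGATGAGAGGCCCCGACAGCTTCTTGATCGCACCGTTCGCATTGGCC
Hoxb3os-201: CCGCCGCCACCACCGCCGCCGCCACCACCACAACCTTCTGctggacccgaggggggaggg

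Of the 178 members, 94 had a symbol with a start window in RefSeq, 250 bases before to 50 after the start on GRCm38.p6. Windows are shown for 3 members that are described by name below and whose window touches no untranslated region. In the gene tables Rab26os lies far above its partner and Hoxd3os1 far above a homeobox gene. Airn is the imprinted antisense RNA of Igf2r. Capitals mark each CG pair. The Rab26os window, chr17:24528001-24528300 on the plus strand, has 11 CG pairs, an observed-to-expected ratio of 0.635. The Hoxd3os1 window, chr2:74716081-74716380 on the minus strand, has 5, a ratio of 0.229. The Airn window, chr17:12741061-12741360 on the plus strand, has 3, a ratio of 0.192. The window of Zbtb11os1 met the same conditions and is not shown, with 17 CG pairs and a ratio of 0.506.
Rab26os: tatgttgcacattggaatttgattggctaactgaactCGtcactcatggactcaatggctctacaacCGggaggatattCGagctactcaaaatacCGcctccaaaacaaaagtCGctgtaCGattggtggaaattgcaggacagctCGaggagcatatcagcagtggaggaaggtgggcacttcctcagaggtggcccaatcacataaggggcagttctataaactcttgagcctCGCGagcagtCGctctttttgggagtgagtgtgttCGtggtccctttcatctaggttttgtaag
Hoxd3os1: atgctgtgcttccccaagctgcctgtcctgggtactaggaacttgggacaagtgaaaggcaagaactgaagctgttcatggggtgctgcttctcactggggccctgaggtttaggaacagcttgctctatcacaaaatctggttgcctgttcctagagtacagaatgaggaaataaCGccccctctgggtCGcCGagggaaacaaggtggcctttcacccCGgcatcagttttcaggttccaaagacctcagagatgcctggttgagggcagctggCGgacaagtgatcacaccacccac
Airn: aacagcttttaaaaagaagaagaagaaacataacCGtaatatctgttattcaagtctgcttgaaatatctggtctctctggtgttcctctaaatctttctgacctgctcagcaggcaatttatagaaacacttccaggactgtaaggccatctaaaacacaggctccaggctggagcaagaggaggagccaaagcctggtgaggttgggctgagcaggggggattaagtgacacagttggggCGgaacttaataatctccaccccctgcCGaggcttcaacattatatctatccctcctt
Over the 132 windows of the 94 members the median was 16 CG pairs, against 7 over all 32851 windows. The 3 windows shown lie below the median of the members. All windows take in genes that were not detected, and the part of detection in these differences was not tested. TATAAA, on either strand, was found in 11 windows of members (8.33%) and in 13.6% of all windows. CCAAT was found in 46 (34.9%) against 37.4%, and GGGCGG in 61 (46.2%) against 35.7%. The motifs can overlap, and a match describes letters only. TATAAA occurs in the Rab26os and Airn windows, CCAAT in that of Rab26os and GGGCGG in that of Airn, and none of the 3 in that of Hoxd3os1.

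Most members were low. Only 13 reached a mean of 10 TPM, 29 lay between 5 and 10, 56 between 2 and 5, and 80 below 2 TPM. The median was 2.44 TPM in replicate 1 and 2.24 TPM in replicate 2, close to the 2.73 and 2.74 TPM of the 247 detected lincRNA genes and below the 12.3 and 12.5 TPM of the 12355 detected protein-coding genes. Together the members summed to 905 and 910 TPM and held 0.121% and 0.122% of the counts. The 5 highest members made up 29.6% and 33.9% of the summed TPM. The plot of both libraries shows Tbx3os1 apart from the rest, with the other levels following each other without a gap of like size.

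**Figure D1:**
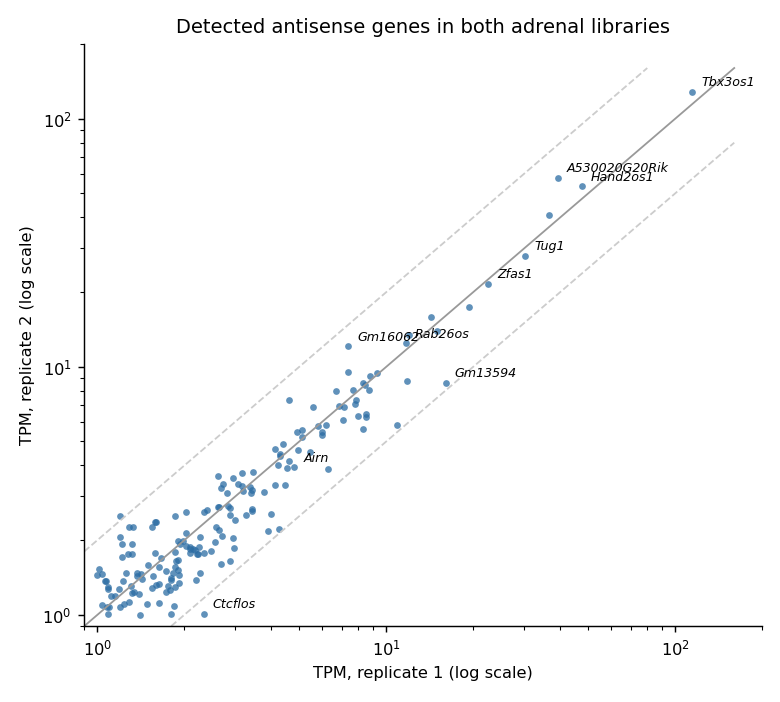
Each point is 1 of the 178 detected antisense genes, with TPM in replicate 1 on the x axis and in replicate 2 on the y axis, both on log scales. The solid line marks equal values and the dashed lines a 2-fold difference. Tbx3os1 stands alone at 114 and 129 TPM, and most genes lie below 5 TPM.

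The 2 members with the highest mean TPM were Tbx3os1 and Hand2os1, each beside the transcription factor gene it is named after. Tbx3os1 had 114 TPM in replicate 1 and 129 TPM in replicate 2, a mean of 122 ± 9.98 (SD, n = 2). It starts 696 bases from Tbx3, a T-box factor, which had 178 and 182 TPM. Both libraries thus place the antisense RNA below its partner, within a factor of 2 of it. Hand2os1 had 47.5 and 53.3 TPM, beside 17.9 and 25.01 TPM for Hand2, a basic helix-loop-helix factor of the sympathoadrenal lineage. Here the order was the other way, with the antisense gene higher in both libraries. Hand2os1 has 37 annotated transcripts, and the leading one, Hand2os1-210, held 15.0% and 14.7% of the gene in the deposited transcript tables.

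The antisense RNAs of several other transcription factor genes were below the factors themselves. Junos had 5.82 and 5.78 TPM against 173 and 151 TPM for Jun, a subunit of AP-1. Gm11175, the RNA that faces Jund codons in the sequence above, had 4.12 and 4.68 TPM against 107 and 88.0 TPM for Jund, another AP-1 subunit. A830082K12Rik had 5.98 and 5.44 TPM, beside 8.50 and 7.29 TPM for its partner Nr2f1, an orphan nuclear receptor. B130024G19Rik had 4.28 and 4.46 TPM against 45.7 and 53.2 TPM for Nr2f2, the close relative of Nr2f1. The antisense genes of these related receptors were thus near the same level while the receptors were not. Zeb2os had 2.09 and 1.77 TPM against 50.7 and 53.8 TPM for Zeb2, a zinc finger repressor. Runx2os1, at 1.01 and 1.53 TPM, and Nr6a1os, at 1.40 and 1.00 TPM, were close to the limit, and their partners Runx2 and Nr6a1 were also higher in both libraries.

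Antisense genes of the Hox clusters, which set position along the body axis, differed in their order with the Hox gene. Hoxb5os had 11.8 and 8.75 TPM, and Hoxb5, the homeobox gene it is named after, 12.4 and 12.3 TPM. Hoxb6, which it overlaps over a longer span, had 25.3 and 20.7 TPM. Hoxb3os had 1.15 and 1.19 TPM against 19.9 and 16.3 TPM for Hoxb3. In contrast, Hoxd3os1 had 6.69 and 7.98 TPM against 0.62 and 0.28 TPM for Hoxd3. Hoxb5os and Hoxb3os were below, and Hoxd3os1 above, these Hox genes in both libraries.

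Some members lie at loci known to be imprinted in the mouse. Airn, which in the mouse is transcribed from the paternal allele and represses Igf2r in cis, had 4.80 and 3.94 TPM. Igf2r, the receptor that clears IGF2, had 29.8 and 28.2 TPM. Snhg14, the host of a large snoRNA cluster whose far end runs antisense to Ube3a, had 4.21 and 4.00 TPM, and Ube3a, a ubiquitin ligase, 51.6 and 51.2 TPM. Both imprinted antisense genes were well below their partners in both libraries. The second quantifier gave higher levels for both, 6.96 and 6.003 TPM for Airn and 7.98 and 6.64 TPM for Snhg14. Gm44732, which faces the codons of Cdkn1c, an imprinted inhibitor of cyclin-dependent kinases, had 1.24 and 1.10 TPM against 83.1 and 95.6 TPM. Its deposited TPM interval reached down to 0.750 and 0.612 TPM. No value here separates the parental alleles.

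Several widely expressed noncoding genes were also members. Tug1, a conserved long noncoding RNA that heads away from Morc2a, a chromatin ATPase, had 30.3 and 28.0 TPM and 3404 and 2883 counts, the most of any member in replicate 1. Zfas1, a host of small nucleolar RNAs, had 22.5 and 21.6 TPM, and the second quantifier gave 20.996 and 20.2 TPM. Gt(ROSA)26Sor, the RNA at the locus used for mouse transgenes, had 7.11 and 6.85 TPM. These 3 genes varied little between the libraries, with log2 ratios of replicate 2 to replicate 1 of -0.10 ± 0.04 for Tug1, -0.06 ± 0.10 for Zfas1 and -0.06 ± 0.15 for Gt(ROSA)26Sor (± counting standard error).

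Among members with clone-style names, A530020G20Rik was the highest, with 39.2 TPM in replicate 1 and 57.9 TPM in replicate 2. Its partner Slc44a3, a choline transporter-like gene, had 8.61 and 8.13 TPM. 4930426D05Rik had 36.6 and 40.9 TPM, beside 11.9 and 10.2 TPM for Klhl14, a Kelch-like gene. Both stood above the partner they start next to. 1810032O08Rik had 19.3 and 17.4 TPM and meets the sialyltransferase gene St6galnac2, at 14.3 and 11.4 TPM, tail to tail. 2010007H06Rik had 15.0 and 13.9 TPM against 1.26 and 1.78 TPM for Colca2. 2310009A05Rik had 11.96 and 13.4 TPM against 8.62 and 8.56 TPM for Pigb, an enzyme of the GPI anchor. Again the antisense gene was the higher of each pair in both libraries. Gm13594, next to Cobll1, had 16.1 and 8.63 TPM, and Gm16062, opposite the COP9 signalosome gene Cops3, 7.39 and 12.1 TPM. Gm13594 was high in replicate 1 and Gm16062 in replicate 2. Gm16536 lies within Bace1, the beta-secretase gene that acts on amyloid precursor protein, with 8.30 and 8.56 TPM against 10.5 and 13.0 TPM. AC109619.1, inside Macrod1, had 8.80 and 9.17 TPM, against 8.98 and 9.63 TPM for that ADP-ribose hydrolase gene. Gm17276 had 7.34 and 9.49 TPM opposite Notch3, a receptor of vascular smooth muscle, at 2.66 and 2.68 TPM. 5430405H02Rik had 8.69 and 8.08 TPM opposite Tgif2, a homeobox repressor, at 0.77 and 1.32 TPM.

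More members with clone-style symbols and means from 3 to 9 TPM are given as examples, picked after their values were seen. Gm26885 had 8.28 and 5.63 TPM beside 30.1 and 20.6 TPM for Pim1, a survival kinase, and both genes of this pair were lower in replicate 2. Gm15417 had 10.9 and 5.83 TPM beside 21.1 and 24.0 TPM for Zbtb7b, a zinc finger factor. In scaled counts the log2 ratio of replicate 2 to replicate 1 was -0.49 ± 0.18 for Gm15417 and -0.04 for Zbtb7b. 9130221H12Rik, inside the glycogen synthase kinase gene Gsk3a, had 4.92 and 5.45 TPM against 33.1 and 34.8 TPM. 6330403L08Rik had 4.13 and 3.35 TPM beside 16.7 and 14.6 TPM for the growth factor gene Pdgfa. Both partners were several times as high as the member. 3110056K07Rik had 6.87 and 6.97 TPM against 101 and 107 TPM for Psma3, a proteasome subunit. 1600020E01Rik starts 74 bases from Pcbp1, a poly(C)-binding protein gene, with 5.57 and 6.90 TPM against 104 and 101 TPM. Both antisense RNAs were far below their partners in each library. Gm26782, next to the telomerase-associated gene Tep1, had 8.50 and 6.47 TPM in the gene tables and 15.0 and 13.8 TPM in the second quantifier.

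Further pairs were picked after their values were seen and stand for no group. 6330562C20Rik had 2.67 and 3.24 TPM beside Cers2, a ceramide synthase gene, at 83.2 and 81.4 TPM. AC110206.1, inside Gpam, which starts glycerolipid synthesis, had 4.59 and 4.18 TPM against 25.1 and 30.9 TPM. D330041H03Rik had 3.06 and 3.37 TPM opposite the lipid transporter gene Abca3, at 13.9 and 14.6 TPM. The partner was the higher gene in each of these picked pairs. Gm26982, opposite the ghrelin gene Ghrl, had 2.62 and 3.61 TPM against 0.12 and 0.55 TPM. Gm16008, around Tnfrsf18, a receptor of T cells, had 7.78 and 7.06 TPM against 0.40 and 0.12 TPM. These 2 members stood above a partner under the limit.

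Of the members, 26 are named as the opposite strand (os) of another gene, and all 26 of those genes were in the tables. The antisense gene was below its namesake in both libraries for 19, above it in both for 6, and mixed for Prox2os, which had 1.66 and 1.70 TPM against 2.56 and 1.66 TPM for Prox2. The 6 above were Hand2os1, Rab26os, Ttc39aos1, Hoxd3os1, Brip1os and Ctcflos. Rab26os had 11.7 and 12.5 TPM against 1.14 and 1.53 TPM for Rab26, a GTPase of secretory vesicles. It lies within Rab26 without overlap of exons, and the second quantifier gave it less, 4.49 and 7.29 TPM. Brip1os had 6.18 and 5.83 TPM against 0.16 and 0.17 TPM for Brip1, a DNA repair helicase that it does not overlap. Ctcflos had 2.33 and 1.01 TPM against 0.07 and 0.03 TPM for Ctcfl, a germline relative of CTCF. Ttc39aos1, at 8.45 and 8.40 TPM, starts 468 bases from Ttc39a, at 6.03 and 6.32 TPM, without overlap. At the other end, H3f3aos had 1.11 and 1.19 TPM against 208 and 203 TPM for H3f3a, which encodes histone H3.3. Rab10os, at 14.3 and 15.9 TPM, was also far under Rab10, a GTPase of vesicle traffic, at 58.3 and 58.9 TPM.

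**Figure D2:**
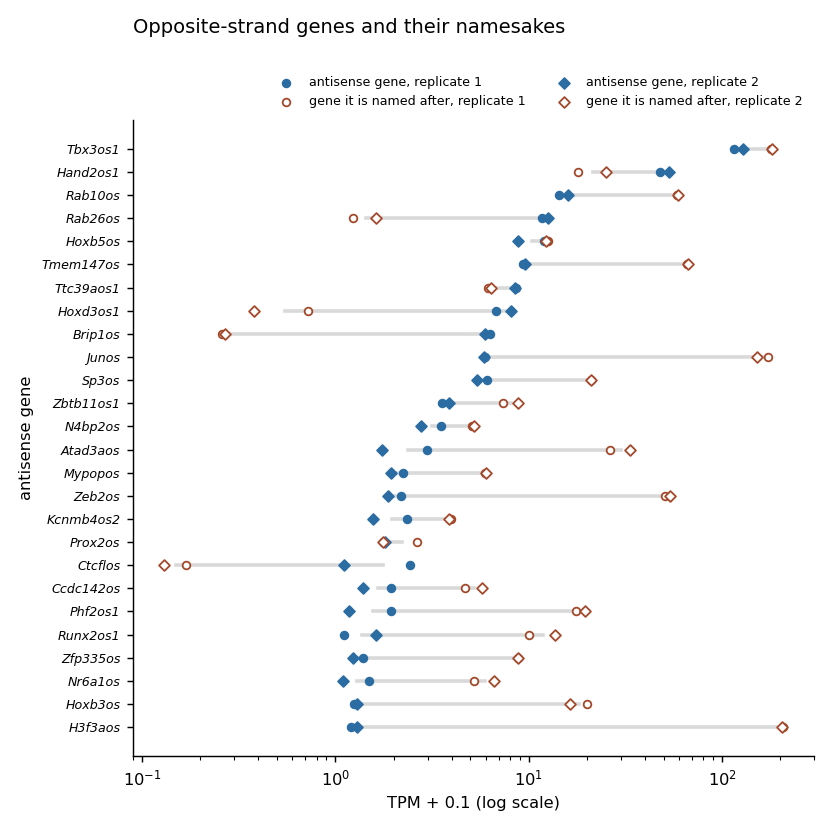
Each line is 1 of the 26 members named for the opposite strand of another gene, ordered by mean level. Filled blue symbols give TPM + 0.1 of the antisense gene and open red symbols that of its namesake in replicates 1 (circles) and 2 (diamonds), on a log scale. The namesake is higher in both libraries for 19 and lower in both for 6.

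The remaining named members followed the same order. Tmem147os had 9.27 and 9.47 TPM against 65.4 and 66.4 TPM for Tmem147, which it does not overlap in this annotation. Another entry with the symbol Tmem147os, of a different biotype, had 2.33 and 7.81 TPM and is not a member. Sp3os had 5.98 and 5.30 TPM against 21.01 and 20.97 TPM for Sp3, a GC-box binding factor. Zbtb11os1, N4bp2os, Atad3aos, Mypopos, Kcnmb4os2, Ccdc142os, Phf2os1 and Zfp335os were each between 1 and 4 TPM in both libraries and below their namesake in both.

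In gene structure, 23 of the 178 members (12.9%) had single-exon transcripts only, against 5.63% of the 2912 antisense genes under the limit and 18.6% of the detected lincRNA genes. The median exonic length was 2022 bases for members, 920 bases for antisense genes under the limit and 2322 bases for detected lincRNA genes. Members had a median of 2 annotated transcripts, and 51 had only 1. In 91 of the 127 members with more transcripts, the same transcript led in the deposited transcript tables of both libraries, and in 65 it also led in the second quantifier. Every transcript of the gene carried the antisense biotype in 157 members. Chromosome 7 had the most members, 21, followed by chromosome 2 with 15.

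The members were compared with the gene on the opposite strand. An overlapping opposite-strand gene was found for 170 members. Where there were several, protein-coding genes were taken first and then the longest overlap. Of the partners, 169 were protein-coding, a count that this order favours. Of the 170 members, 131 were below their partner in both libraries, 31 above it in both, and 8 mixed. The median log2 ratio of member to partner was -2.01 in replicate 1 and -2.11 in replicate 2, with 0.1 TPM added to each level. Partners had a median of 11.1 and 11.3 TPM, and 148 of them were detected. Among the 31 members above their partner, 10 had a detected partner, so that 21 stood above a gene that missed the limit. Some members overlap a further gene of higher level. Against the overlapping gene of highest level, 140 members were below in both libraries. The selection of members at 1 TPM bears on this count, since a member whose partner is low cannot be below it.

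Arrangement divided the pairs. The 5′ ends overlapped head to head in 63 pairs, 40 of them with starts within 1 kb of each other. In 53 pairs the 3′ ends overlapped, in 41 the member lay within the partner, and in 13 the partner lay within the member. The median log2 ratio of member to partner was -2.06 for heads, -1.87 for tails, -2.58 for members inside the partner and -0.64 for partners inside the member. The median level of the members was 2.68 TPM for heads, 2.16 for tails, 2.08 inside the partner and 2.18 around it, so that the groups lay close together. The median level of the partners was 11.5, 11.1 and 11.8 TPM in the first 3 arrangements and 2.62 TPM in the last. Exons overlapped in 139 pairs, over a median of 402 bases or 16.8% of the member's exonic length, and 82 pairs included codons of the partner.

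**Figure D3:**
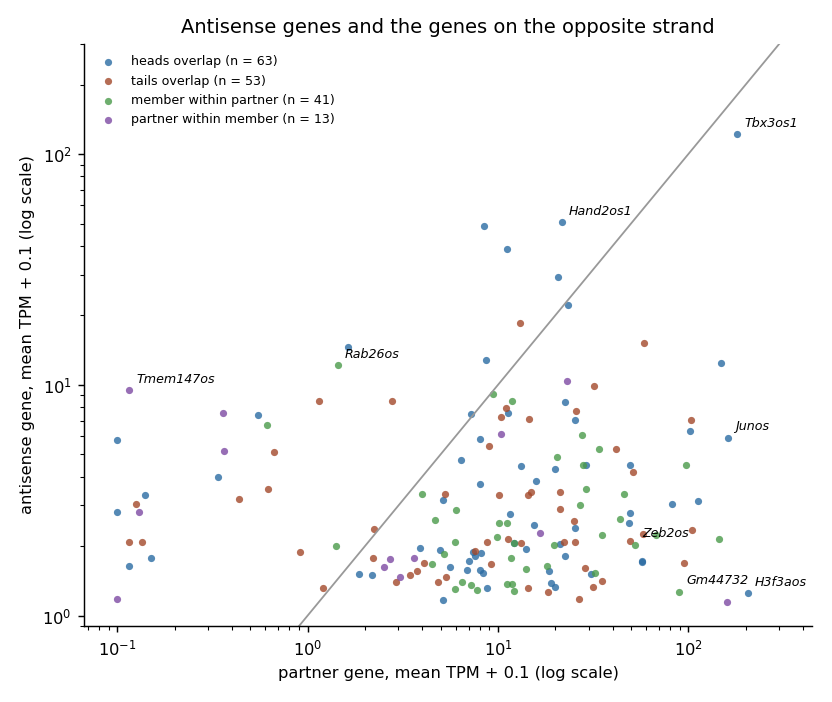
Each point is 1 of the 170 pairs, with the mean TPM + 0.1 of the partner on the x axis and of the antisense gene on the y axis, on log scales and coloured by arrangement. The line marks equal levels. Most pairs lie under the line, and no member can lie under 1 TPM.

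Across the 170 pairs, the Pearson r between the log2 levels of members and partners was 0.066 and the Spearman correlation 0.094. This describes genes from the same 2 libraries, and member levels end at 1 TPM by the rule, so it does not give the relation over all antisense genes. The lowest ratios belonged to H3f3aos, to Gm20632 opposite the histone gene Hist2h2aa2, to Gm44732, to 1110046J04Rik opposite Serpinb6a and to 4930481A15Rik opposite Drap1. Gm20632 had 1.09 and 1.01 TPM against 161 and 158 TPM for Hist2h2aa2, and the level of this histone gene is uncertain because it has a near-identical copy. 1110046J04Rik had 2.24 and 1.87 TPM against 149 and 140 TPM for Serpinb6a, a serine protease inhibitor. 4930481A15Rik had 1.80 and 1.38 TPM against 95.7 and 94.9 TPM for Drap1, a transcriptional corepressor. In these pairs the partner was among the abundant genes and the antisense RNA near the limit. Since member levels end at 1 TPM, ratios this low can occur only beside an abundant partner. The highest ratios belonged to Tmem147os opposite the sperm enzyme gene Gapdhs, Sp3os opposite Gm11084, Gm15879 opposite Dnase1, 9330159M07Rik opposite Trim43c and 9530082P21Rik opposite Kremen2. The partners of these 5 were listed at 0.06 TPM or less in both libraries. Sp3os also overlaps Sp3, which was higher than Sp3os in both libraries.

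Whether the counting kept the strands apart is not given in the sources used here, although the kit is directional per the labels. Among all antisense genes, 18 had at least 80% of their exonic length opposite exons of a partner at 50 TPM or more. Of these, 7 were listed at 0 in both libraries, and 3 were members, namely Gm11175, Gm44732 and Gm19412. The median level was 0.044% of that of the partner and the highest 4.52%, for Gm11175. Gm19412, opposite the antigen presentation gene Tapbp, had 2.48 and 1.80 TPM against 63.5 and 71.6 TPM. These 18 genes were thus low beside abundant partners. The share of antisense genes detected was 2.53% of 434 with a partner under 0.1 TPM, 2.24% of 402 from 0.1 to 1 TPM and 5.77% of 971 from 1 to 10 TPM. It was 8.05% of 907 with a partner from 10 to 50 TPM and 11.5% of 182 at 50 TPM or more. The share was higher beside the more abundant partners, and the part of strand assignment in this was not tested.

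The remaining 8 members overlapped no gene on the opposite strand in this annotation. Ttc39aos1, described above, was the highest. Gm11423, which starts 66 bases from the DNA ligase gene Lig3, had 3.19 and 3.15 TPM, and Lig3 11.2 and 10.2 TPM. 2810001G20Rik starts 16 bases from Cox10, a gene of heme A synthesis, with 3.44 and 2.62 TPM against 6.38 and 6.94 TPM. Gm13375 starts 173 bases from Arhgap21, which encodes a GTPase-activating protein, with 2.73 and 3.37 TPM against 27.3 and 28.8 TPM. These 3 were below the neighbour in both libraries. Gm4285 had 1.22 and 1.71 TPM beside Tpt1, which encodes translationally controlled tumour protein, at 760 and 782 TPM. Gm14286, F630028O10Rik and Gm10863 had between 1 and 2 TPM, with Nnat, Vsig4 and Sox10 as their nearest neighbours on the other strand.

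The quantifiers were compared next. The gene tables and the second quantifier, whose transcript values were summed per gene, gave similar levels for most members. The median log2 ratio of the second quantifier to the gene table was 0.10 in replicate 1 and 0.07 in replicate 2, against -0.06 and -0.10 over the 14168 detected genes. For 111 members the levels were within a factor of 1.3 in both libraries. The second quantifier was higher in both libraries for 85 members and lower in both for 47. It was at least 2-fold higher in both for 5 of the 178 members (2.81%), and the background share was 0.543% of all detected genes. It was 2-fold lower in both for 0 members, with a background share of 3.06%. Without replicate 1 the higher count was 6 and the lower count 0. Without replicate 2 they were 9 and 1, the last being Rab26os. Members had to reach the limit in the gene tables but not in the second quantifier, and detected lincRNA genes under the same rule gave 13 higher (5.26%) and 7 lower (2.83%) of 247.

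The 5 members that were 2-fold higher had low levels in the gene tables. Gm10863, which starts 801 bases from Sox10, had 1.20 and 1.07 TPM in the gene tables and 5.37 and 5.05 TPM in the second quantifier, log2 ratios of 2.07 and 2.14. Sox10, a neural crest and Schwann cell factor, had 0.77 and 1.00 TPM. The difference was the largest of any member and of like size in both libraries. Mypopos had 2.14 and 1.84 TPM against 5.04 and 4.94 TPM. 4933431E20Rik had 1.59 and 2.37 TPM against 3.69 and 7.19 TPM, and was the only member whose deposited TPM lay below its own deposited interval, in both libraries. Gm15860 had 1.78 and 1.26 TPM against 3.97 and 3.54 TPM. Gm15952 had 1.28 and 1.75 TPM against 3.48 and 3.82 TPM. All 5 have several annotated transcripts, and 4 overlap exons of a partner. In counts in place of TPM, Gm10863 alone was 2-fold higher in both libraries. Gm38250, Phf2os1, Gm14966 and Gm4285 passed 2-fold in replicate 1 only, and Gm4285 had log2 ratios of 1.16 in replicate 1 and 0.27 in replicate 2. Gm26782 passed it in replicate 2 only.

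Among members lower in the second quantifier, Rab26os was the farthest, with 11.7 and 12.5 TPM in the gene tables and 4.49 and 7.29 TPM in the second quantifier. Its log2 ratios were -1.36 and -0.77. It had 69 counts in each library in the gene tables and 20 and 26 in the second quantifier. Gm20457 had 2.22 and 1.75 TPM against 1.36 and 0.991 TPM. Gm17690, 4921504A21Rik, C230037L18Rik, AC165962.1, Gm9754 and Atad3aos followed, with the smaller of their library log2 ratios between -0.26 and -0.46.

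**Figure D4:**
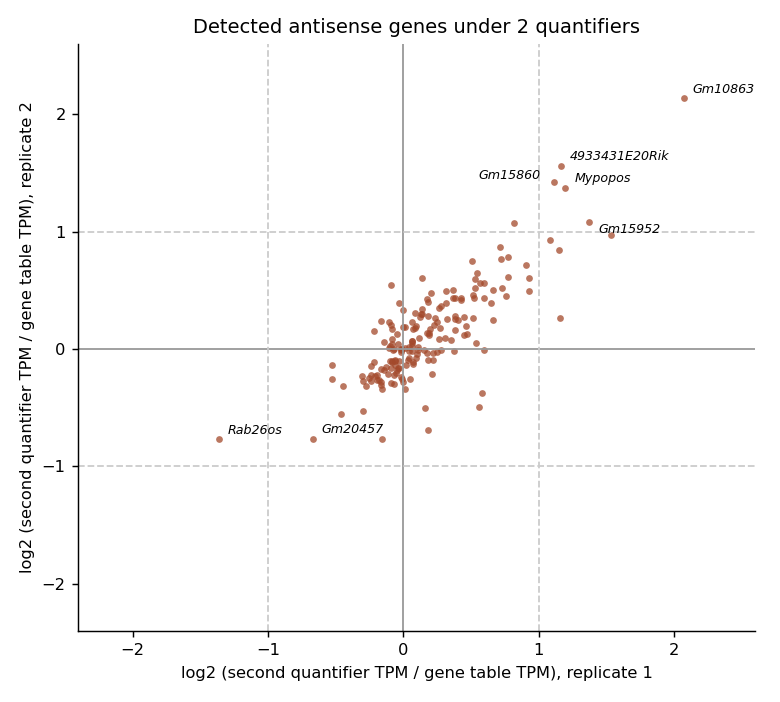
Each point is 1 of the 178 members, with the log2 ratio of the second quantifier's TPM to that of the gene table in replicate 1 (x axis) and replicate 2 (y axis), after adding 0.1 TPM. Dashed lines mark 2-fold. The 5 named points in the upper right pass 2-fold in both libraries, and Rab26os passes it on the lower side in replicate 1 only.

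These counts changed with the table in which detection was set. When detection was set in the second quantifier in place of the gene tables, 260 antisense genes were detected, of which 171 are members and 89 are not. Of these 260, 67 were 2-fold higher in the second quantifier in both libraries, against 759 (5.21%) of the 14569 genes detected there. Under either limit the share among antisense genes was above that of all detected genes. The part of selection in this was not tested. The count of genes higher in the second quantifier therefore depended on which table set the limit. The median log2 ratio was -0.04 for the 51 members with 1 transcript and 0.15 for the 127 with more.

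Between the libraries, 167 members that averaged 20 counts or more were compared by the log2 ratio of scaled counts of replicate 2 to replicate 1. None passed 2-fold in either direction, and the background shares over 16376 genes were 0.69% higher and 0.989% lower in replicate 2. Members had to reach 1 TPM in both libraries and the background genes did not, so the selection of members favours small ratios. Detected lincRNA genes, held to the same TPM limit, gave 1 higher and 2 lower of 235. The median was -0.05 for members and -0.01 for all genes. The quartiles of the members were -0.28 and 0.15, and those of all genes -0.13 and 0.11. Replicate 2 was higher for 76 members and lower for 91. The counting standard error of a member had a median of 0.22, since the median count was 79 in replicate 1 and 73.5 in replicate 2. Reads are not independent molecules, so these errors cover counting only.

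**Figure D5:**
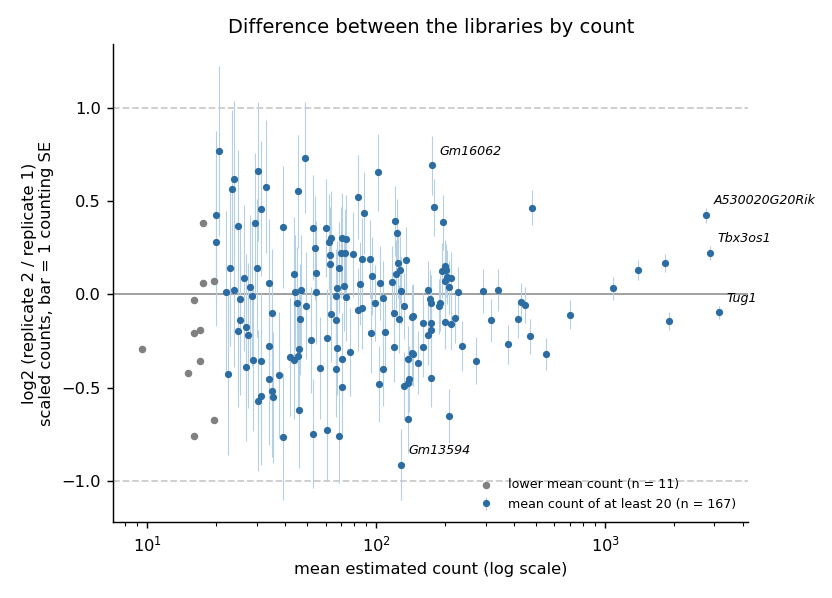
The log2 ratio of replicate 2 to replicate 1 in scaled counts (y axis, bars 1 counting standard error) is plotted against the mean estimated count (x axis, log scale) for the 167 members at 20 counts or more, with 11 lower members in grey. All points lie between the dashed 2-fold lines, and the spread is wider at low counts.

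Gm13594 was the lowest in replicate 2, with 173 counts in replicate 1 and 83 in replicate 2, a log2 ratio of -0.91 ± 0.19. Cobll1, beside which it starts, had 156 and 142 TPM. Gm42067, Gm11266, Gm4419, Ctcflos and Gm49417 followed, with log2 ratios from -0.67 to -0.76. On the other side, 1810062O18Rik was at 0.77 ± 0.46 with 16 and 25 counts, so its error is wide. 4933417D19Rik was at 0.73 ± 0.30, Gm16062 at 0.69 ± 0.16, Gm15635 at 0.66 ± 0.37, Gm34939 at 0.65 ± 0.20 and Gm49719 at 0.62 ± 0.42. Gm16062 had 142 and 208 counts, the most of these 6. Among the abundant members, A530020G20Rik was higher in replicate 2 by 0.42 ± 0.04 and Tbx3os1 by 0.22 ± 0.04. In 145 pairs with enough counts on both sides, member and partner moved in the same direction in 78, with a Pearson r of 0.013 between their log2 ratios (a description across genes).

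Values near the limit show how narrow the choice of members was. The members nearest to it from above were Nr6a1os at 1.40 and 1.00 TPM, D130020L05Rik at 1.00 and 1.45 TPM, Runx2os1 at 1.01 and 1.53 TPM, Gm15984 at 1.80 and 1.01 TPM and Ctcflos at 2.33 and 1.01 TPM. Just below were Hk1os at 1.04 and 0.99 TPM, Gm12395 at 1.28 and 0.99 TPM, Gm10501 at 0.98 and 1.15 TPM, B230322F03Rik at 1.24 and 0.98 TPM and Gm46218 at 0.98 and 1.04 TPM. The lower bound of the deposited TPM interval reached 1 TPM in both libraries for 134 of the 178 members.

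A list of 27 antisense and related noncoding genes known from other work was looked up, of which 26 were found. By symbol, 19 entries had the antisense biotype, and 5 were members, namely Zfas1, Hoxb5os, Airn, Snhg14 and Zeb2os. The other 14 were under the limit in at least 1 library. Nespas, antisense at the imprinted Gnas locus, had 0.65 and 0.71 TPM. Dnm3os, a host of microRNAs, had 0.33 and 1.02 TPM from 74 and 80 counts, so its TPM and its counts differed in their change. Tsix, the antisense RNA of Xist, had 0.04 and 0.01 TPM, and Pax6os1 was listed at 0 in both libraries. Gas5, a snoRNA host of the lincRNA biotype, had 127 and 145 TPM and is not a member.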

How the data were processed

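RNA of the adrenal glands was made into directional libraries with spike-in RNA from 300 ng each, per the labels. For each library the authors deposited gene tables with expected counts, TPM and FPKM. Interval bounds of TPM are a deposited signal per the file headers. Transcript tables deposited with them give each transcript's percent of its gene. A further deposited transcript table, here the second quantifier, gives estimated counts and TPM. Per the library notes, the build is mm10 and the annotation GENCODE M21. Which quantifiers and strand settings were used is not given in the sources used here.

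Genes held by both quantifiers were used, 55450 in all. Biotypes came from the transcript names of the second quantifier. Expected counts were rounded for ratios between libraries, which used TMM-scaled totals (factors 0.997 and 1.003, edgeR 4.0.16 in R 4.3.3) and a prior count of 0.5. DESeq2 1.42.0 gave alternative size factors. Ratios of TPM used a pseudocount of 0.1. A partner was the opposite-strand gene with the longest overlap, protein-coding first. Sequences came from GENCODE M21 transcripts and RefSeq windows on GRCm38.p6. Ratios were checked on simulated counts. No test was run between groups, since there was 1 group.

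Named members were the 20 highest, the 8 largest quantifier differences each way, the 6 largest library ratios each way, those named for an opposite strand, those nearest the limit, the 5 highest and 5 lowest partner ratios and a list of known antisense genes. Others were named after their values were seen, namely those beside Nr2f1, Nr2f2, Jund and Tapbp, Gt(ROSA)26Sor, further pairs given as examples, and members without a partner. The members and lists were chosen with earlier results of these data known.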

Additional observations from a re-analysis of the deposited data

How the results depend on the processing

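Of 66 alternatives, 43 left the result within 1.5 times its count or within its own spread. A count cannot turn a direction, and each alternative median kept the sign of its main value. The number of antisense genes was 294 at a limit of 0.5 TPM, 89 at 2 TPM and 39 at 5 TPM, and ranged from 205 to 209 with 1 library left out. Members lower in the second quantifier were 2 at a fold of 1.5 and 1 in counts, and 0 to 1 with 1 library left out. Members higher there were 1 with a pseudocount of 1 TPM, 15 at a fold of 1.5, 1 at a fold of 4 and 1 in counts. They were 67 with detection in the second quantifier or in either, and 6 to 9 with 1 library left out. The median log2 quantifier ratio, 0.07 over both libraries, was 0.26 in counts, 0.30 with detection in the second quantifier, and 0.069 to 0.098 with 1 library left out. Members past 2-fold between the libraries were 1 in TPM, 1 in the estimated counts of the second quantifier and 14 at a fold of 1.5. The median of that ratio, -0.05 with an order-statistic 95% interval from -0.10 to 0.02, stayed inside the interval. This interval is taken over 167 genes of the same libraries, which are not independent replicates. It therefore does not measure the spread between libraries or animals. Members below their partner were 58 of 85 at a limit of 2 TPM. The median log2 ratio to the partner, -2.07, was -1.97 in the second quantifier, -1.68 with a pseudocount of 1 TPM and -2.22 against the overlapping gene of highest level, an alternative added after the data were seen. Other causes of these shifts were not tested. No paired analysis was possible because there is 1 group. Low counts limit the precision: the lowest member had 11 counts in replicate 1, and the lowest in replicate 2 had 8.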
